A study of Mus musculus with 45 samples.

Results

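The genes described here are 34 solute carriers that move nutrients, ions, metals and vitamins across the intestinal epithelium. They were chosen by symbol and substrate, and all 34 were found among the 23366 genes of the count tables. They fall into 5 carriers of sugars and polyols, 13 of amino acids and peptides, 8 of ions, phosphate, bile acids and monocarboxylates (called ion carriers here), 4 of metals and 4 of vitamins. By their known place in enterocytes 27 are apical, facing the gut lumen, and 7 basolateral, facing the blood.

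Solute carriers are membrane proteins that carry small molecules either down their own gradient or coupled to ions. In the intestine, sodium-coupled carriers of the apical brush border draw sugars, amino acids, phosphate and bile acids out of the lumen, and basolateral carriers pass them on. A sodium gradient across the membrane drives this uptake. Adult enterocytes divide this work along the gut, with the apical bile acid carrier Slc10a2 known from the ileum.

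Transcripts were measured by RNA-seq in cells of wt mouse embryos on a mixed C57BL/6 and CD1 background. Each of 45 libraries held 500 small-intestinal epithelial cells, sorted by EpCAM, an adhesion molecule that epithelial cells carry. A tdTomato lineage label had been begun at embryonic day (E) 9.5 in cells that express Axin2, which Wnt signalling induces, or Id2, which blocks bHLH transcription factors, and the presence of Lgr5, the receptor known from adult intestinal stem cells, was a further sorting criterion. The sorted populations were labelled cells whose Lgr5 state the labels do not give, Lgr5-positive labelled cells, Lgr5-positive unlabelled cells and Lgr5-negative unlabelled cells. The Axin2 cohort gave all 4 populations from the posterior gut part at E15.5, the 3 populations other than the Lgr5-positive labelled one from the anterior part at E15.5, and all 4 at E13.5. The Id2 cohort gave all 4 populations at E13.5. At E13.5 the gut was not divided into parts. Each of these 15 groups had 3 libraries, each from 1 embryo at E15.5 or from 3 pooled embryos at E13.5. The missing anterior population was not analysed here.

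Levels are given as CPM, each gene's share of the reads assigned to genes in a library, scaled to 1e6. Totals ran from 16521311 to 37729425 reads per library, and because the reads carry no molecular identifiers, counting intervals cover counting error only. In sorted bulk samples, fewer cells of a type and less RNA per cell cannot be told apart. Libraries of 1 number in different populations may come from the same embryo or pool. Posterior, anterior and E13.5 libraries mean, unless another population is named, the 9 libraries each of the 3 Axin2 populations that all of them share. All 8 epithelial markers were found, with summed levels of 7653 to 10767 CPM in posterior, 7882 to 9986 CPM in anterior and 6630 to 9384 CPM in E13.5 libraries. In Lgr5-positive labelled cells they summed to 8664 to 9723 CPM in the posterior part and 6230 to 8091 CPM at E13.5. Transcripts of other cell types were also read. The summed level of 8 pancreatic markers was 17 to 59.5 CPM in posterior libraries, where Ptf1a was at 0, against 85.9 to 1098 CPM in anterior libraries, and 81.7 to 118 CPM in posterior Lgr5-positive labelled cells. Of 8 erythroid markers, Hba-a1, Hba-a2, Hbb-b1 and Hbb-b2 were at 0 in all 45 libraries, so the sum rests on the other markers. Why they were at 0 was not tested. The sum had a median of 3.77 CPM and reached 1041 CPM in posterior libraries, against at most 6.91 CPM in anterior ones. It was 1.82, 945 and 1041 CPM in the posterior Lgr5-positive unlabelled libraries. Lgr5 itself averaged 77.1 CPM in Lgr5-positive and 4.64 CPM in Lgr5-negative unlabelled cells of the Axin2 cohort at E13.5, a log2 fold change of 4.02 ± 0.84 (edgeR adjusted p = 0.0069). In the other settings it was higher in Lgr5-positive cells by 2.45, 2.45 and 1.28 (posterior, anterior and Id2), which did not pass. The Axin2 and Id2 cohorts were not set against each other, since marker line and sequencing depth cannot be told apart.

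The regions before the start sites of 3 members are shown because these genes stood out between stages or gut parts and held matches to motifs of factors known from enterocytes. They were chosen after the values had been seen. RefSeq windows on GRCm38.p6 were at hand for 25 of the 34 members, while the counts were made on mm9. The motifs searched, on both strands, were CAAAGTNCA for HNF4 factors and GTTAATNAT for HNF1 factors. Shorter ones were TTTATNG, known as the site of CDX factors, and the site of the zinc finger factor Gata4 and its relatives, which is written AGATAA. Capitals mark the matches, none of which overlap. Each line gives the 250 bases before the start site in the gene's own direction. They lie at chr17:85028097-85028346 on the forward strand for Slc3a1, chr12:31437969-31438218 on the forward strand for Slc26a3 and chr8:5105288-5105537 on the reverse strand for Slc10a2.
Slc3a1: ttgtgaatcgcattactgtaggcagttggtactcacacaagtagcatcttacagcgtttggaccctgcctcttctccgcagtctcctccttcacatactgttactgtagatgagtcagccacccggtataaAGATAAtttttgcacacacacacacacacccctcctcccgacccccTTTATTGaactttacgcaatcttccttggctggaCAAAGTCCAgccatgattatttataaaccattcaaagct
Slc26a3: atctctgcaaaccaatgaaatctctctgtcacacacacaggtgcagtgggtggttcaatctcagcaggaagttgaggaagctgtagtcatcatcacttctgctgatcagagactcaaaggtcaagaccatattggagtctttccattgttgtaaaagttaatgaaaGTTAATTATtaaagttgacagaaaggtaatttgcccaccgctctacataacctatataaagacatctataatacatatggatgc
Slc10a2: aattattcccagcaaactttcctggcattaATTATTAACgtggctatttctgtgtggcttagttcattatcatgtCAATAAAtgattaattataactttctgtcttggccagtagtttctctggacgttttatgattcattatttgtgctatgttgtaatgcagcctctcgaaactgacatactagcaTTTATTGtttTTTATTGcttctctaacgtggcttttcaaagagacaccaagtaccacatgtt
In Slc3a1, which encodes the heavy chain of the cystine and dibasic amino acid carrier, a GATA match began 119 bases, a CDX match 73 bases and an HNF4 match 39 bases before the start site. In Slc26a3, the apical chloride and bicarbonate exchanger, an HNF1 match began 84 bases before it. In Slc10a2, the HNF1 match began 220 bases before it and CDX matches 175, 62 and 52 bases before it. Over the windows of 300 bases, from 250 before to 50 after the start, HNF1 letters stood in 2 of 32 member windows (6.25%), against 0.801% of 32817 windows of all genes. CDX letters stood in 3 member windows (9.38%) against 10.9%, HNF4 letters in 1 (3.13%) against 1.41% and GATA letters in 4 (12.5%) against 11.2%. These are matches of letters and say nothing of binding.

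The members spanned a wide range of levels. Slc3a2, the heavy chain shared by basolateral amino acid exchangers, Slc1a5, a glutamine carrier, Slc40a1, the iron exporter ferroportin, and Slc39a5, a basolateral zinc importer, were the most abundant per length of transcript in the posterior, anterior and E13.5 libraries of the Axin2 cohort. Per kilobase of exon, Slc3a2 had a median of 93.2 CPM (80.4 to 118) in posterior libraries, 105 (97.1 to 130) in anterior libraries and 97.4 (89.7 to 112) in E13.5 libraries. Slc40a1 had 49.7 (21.0 to 81.5), 94.6 (49.7 to 184) and 147 (64.5 to 239) CPM per kilobase in the same order, so that it ranked 4 in the posterior part, 2 in the anterior part and 1 at E13.5. The ranges of Slc3a2 and Slc40a1 overlapped in the posterior part, narrowly, in the anterior part and at E13.5. At E13.5 Slc1a5 at 33.6 to 62.0 lay below Slc3a2 and above Slc39a5 at 12.5 to 31.4. Their order was not tested.

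By median over 9 libraries, 25 members were at 1 CPM or more in the posterior part, 26 in the anterior part and 20 at E13.5. Of the 8 ion carriers 5 reached that mark in the posterior part, 4 in the anterior part and 1 at E13.5. In the Id2 cohort at E13.5 21 members reached it, 1 of them an ion carrier. All 4 metal carriers were above 10 CPM in each of these sets. Low throughout were the peptide carrier Slc15a1, the basolateral hexose carrier Slc2a2, the mannose and glucose carrier Slc5a9 and the vitamin C carrier Slc23a1, with medians of at most 1.49 CPM in posterior, anterior, Axin2 E13.5 and Id2 E13.5 libraries. Slc5a12, a monocarboxylate carrier of low affinity, was at 0 in all 27 libraries of the stage comparison. It held 69 reads, or 3.85 CPM, in a single Lgr5-positive labelled library of the Axin2 cohort at E13.5, and 5 reads over the Id2 cohort, and was too low to be tested, which leaves 33 members tested.

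**Figure D1:**
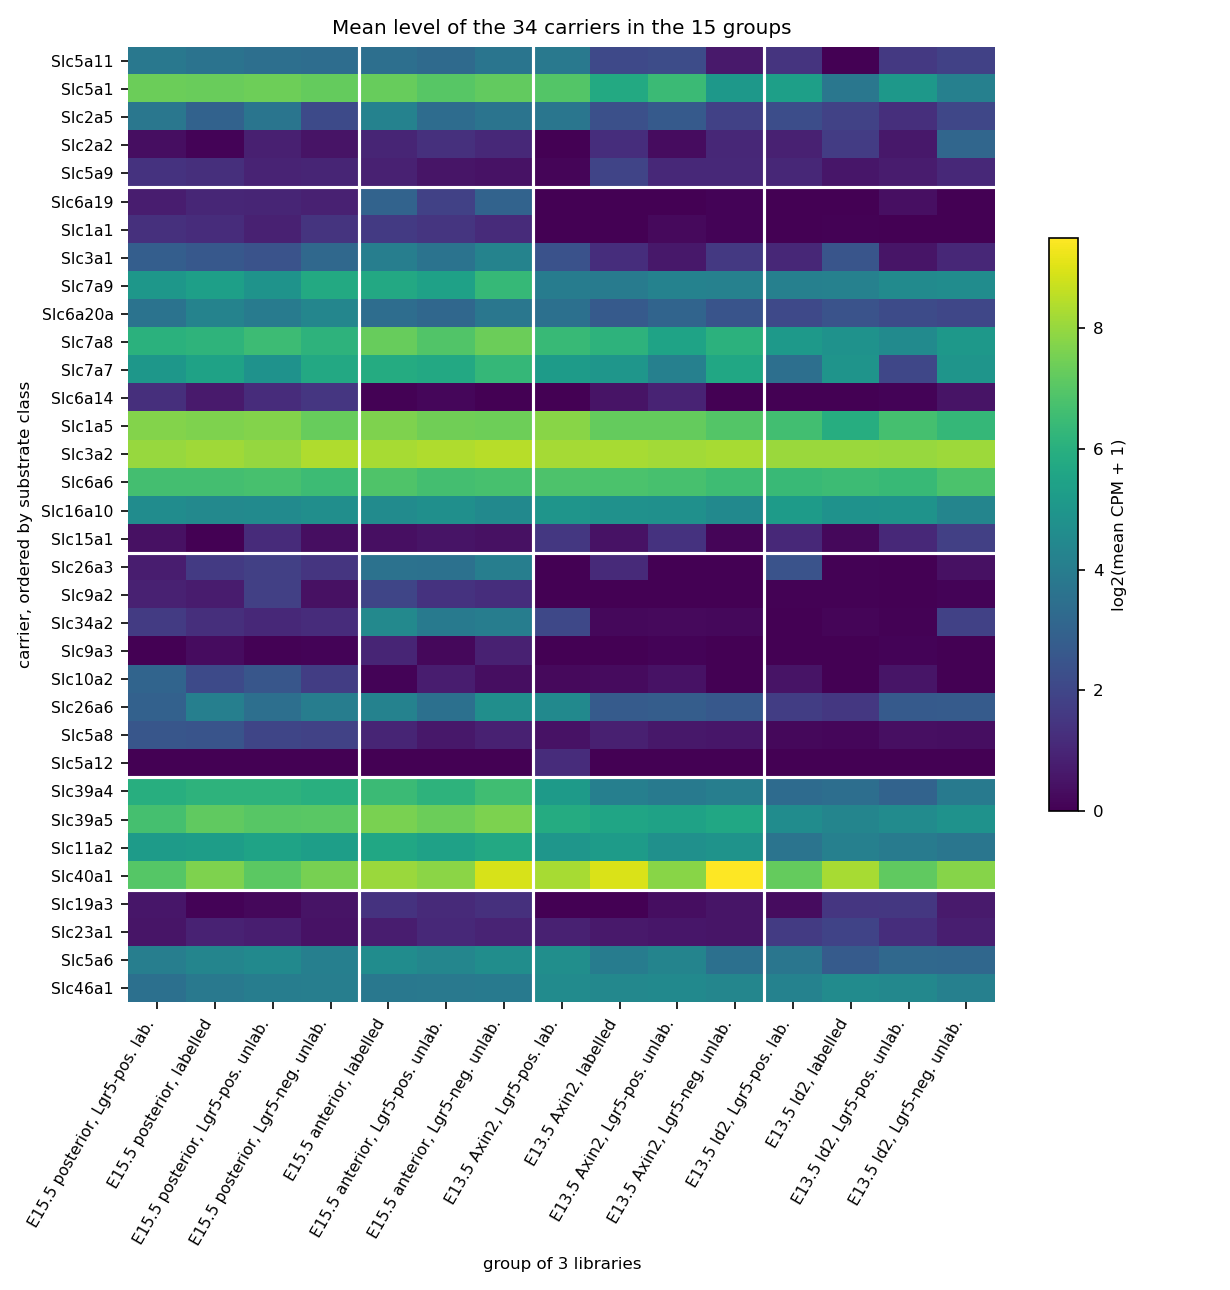
Mean CPM of the 34 carriers (rows, by substrate class) in the 15 sorted groups of 3 libraries (columns), coloured as log2(mean CPM + 1). Slc3a2, Slc1a5, Slc40a1 and Slc6a6 were high in every group, while most ion carriers were near 0 at E13.5.

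Stage was compared first, over the 3 Axin2 populations sorted at E13.5 and from both gut parts at E15.5. The comparison had 18 libraries at E15.5 and 9 at E13.5, which the fit took as independent. Where libraries of 1 number share an embryo or pool, the standard errors and p-values for stage may be too small. At E15.5, 21 of the 34 members were higher and 2 lower than at E13.5 (edgeR's quasi-likelihood test, Benjamini-Hochberg adjusted p below 0.05), where 15.6% of all genes tested were higher and 17.9% lower. The median log2 fold change was 1.27 over the members tested and -0.04 over all genes tested. Ion carriers had 6 of 8 higher with a median of 3.35, sugar carriers 3 of 5 with 1.27, amino acid carriers 8 of 13 with 0.81, and metal carriers 3 of 4 with 1.2, beside 1 lower. Of the vitamin carriers 1 of 4 was higher and 1 lower. By place, 18 of 27 apical members were higher and 1 lower, and 3 of 7 basolateral members were higher and 1 lower. Among 335 other solute carriers, 75 were higher and 38 lower, with a median of 0.18 over the 263 tested. The summed level of 8 enterocyte markers was 522 to 1049 CPM in posterior and 1069 to 2284 CPM in anterior libraries, against 278 to 568 CPM at E13.5. Mesenchymal markers summed to 17.0 to 203 CPM at E15.5, against 128 to 563 CPM at E13.5, and pancreatic markers had a median sum of 72.7 CPM at E15.5, against 3.58 CPM at E13.5. The part of these markers in the counts was not tested. Stage also goes with the number of embryos per library and with the division of the gut at E15.5, and these cannot be told apart.

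Among sugar carriers, Slc5a11, a sodium-coupled myo-inositol carrier, had 4.96, 11.3 and 14 CPM (lowest, median and highest library) in posterior, 5.81, 9.90 and 17 CPM in anterior and 0, 2.82 and 5.04 CPM in E13.5 libraries. Only the lowest posterior library lay within the E13.5 range. Its log2 fold change at E15.5 against E13.5 was 2.5 ± 0.43 (SE, edgeR adjusted p = 1.5e-05). Slc5a1, the sodium-coupled glucose carrier of the brush border, had 120, 160 and 190 CPM in posterior, 109, 141 and 197 CPM in anterior and 29.2, 47.1 and 94.1 CPM in E13.5 libraries. All 18 libraries at E15.5 were above all 9 at E13.5, and the log2 fold change was 1.55 ± 0.17 (edgeR adjusted p = 3.6e-09). Slc2a5, the apical fructose carrier, had 2.34, 7.96 and 15.8 CPM in posterior, 7.85, 11.5 and 27.4 CPM in anterior and 2.08, 3.63 and 6.59 CPM in E13.5 libraries. Anterior libraries did not overlap with E13.5 and posterior ones did. Its fold change of 1.27 ± 0.49 (edgeR adjusted p = 0.043) missed the threshold when any of 14 single libraries was left out, being replicate 3 of each of the 6 E15.5 groups and all E13.5 libraries but labelled replicate 1, with values of 1.19 to 1.35.

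Slc6a19 and Slc1a1, the amino acid carriers that changed most, were almost silent at E13.5. Each had at least 1 E13.5 group with no read, so the sizes and standard errors of their changes depend on how the fit treats 0. Slc6a19, the main apical carrier of neutral amino acids, had 0, 0.537 and 3.03 CPM in posterior, 0.839, 3.68 and 17.7 CPM in anterior and 0, 0 and 0.209 CPM in E13.5 libraries. At E13.5 it had 4 reads in all, in 1 library, and 4 posterior libraries were also at 0. Its log2 fold change was 7.30 ± 1.5 (edgeR adjusted p = 0.00026). It was 6.07 without posterior labelled replicate 1 and 6.10 without posterior Lgr5-negative replicate 1, and was not called in either run. Both runs left the group concerned with no read of Slc6a19, and whether the losses come from this was not tested. Slc1a1, an apical glutamate and aspartate carrier, had 0, 1.03 and 2.91 CPM in posterior, 0.604, 1.45 and 3.83 CPM in anterior and 0, 0 and 0.514 CPM in E13.5 libraries. Its 13 reads at E13.5 came from 3 of 9 libraries, and the fold change was 5.17 ± 0.97 (edgeR adjusted p = 6.8e-05). Slc3a1 had 0.169, 5.74 and 13.1 CPM in posterior, 7.43, 12.9 and 23.5 CPM in anterior and 0.429, 1.08 and 3.60 CPM in E13.5 libraries. Every anterior library was above every E13.5 library, and the fold change was 3.06 ± 0.70 (edgeR adjusted p = 0.00071).

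Slc7a9, the light chain that pairs with Slc3a1, was higher by 1.59 ± 0.28, with no overlap between stages. Slc6a20a, a carrier of proline and other imino acids, was higher by 1.25 ± 0.37, the basolateral neutral amino acid exchanger Slc7a8 by 0.87 ± 0.19, the basolateral dibasic amino acid exchanger Slc7a7 by 0.81 ± 0.28 and Slc1a5 by 0.42 ± 0.12. Slc3a2, the partner chain of Slc7a7 and Slc7a8, had medians of 282 CPM in posterior, 318 CPM in anterior and 294 CPM in E13.5 libraries and a log2 fold change of 0.08, which did not pass the test. Neither did the taurine carrier Slc6a6 at 0.05, the aromatic amino acid carrier Slc16a10 at -0.07 nor Slc15a1 at -0.92.

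The ion carriers held the largest fold changes by class median. Slc26a3, Slc9a2 and Slc9a3 among them had E13.5 groups with no read, so the sizes of these changes depend on the fit. Slc26a3 had 0.484, 2.04 and 3.89 CPM in posterior, 4.98, 10.1 and 19.5 CPM in anterior and 0, 0 and 2.52 CPM in E13.5 libraries. At E13.5 all its reads lay in labelled cells, with 2.52, 0.363 and 0.771 CPM, and the 6 unlabelled libraries were at 0. Its log2 fold change was 7.20 ± 1.05 (edgeR adjusted p = 1.5e-06). That size and its standard error depend on how the fit treats the unlabelled groups at 0. Mean levels were 2.11 CPM in posterior, 12.3 CPM in anterior and 0.406 CPM in E13.5 libraries. In single populations the fold change ran from 2.03 to 9.86, with 2.03 in labelled cells, where it did not pass (edgeR adjusted p = 0.294). Slc9a2, an apical sodium and proton exchanger, had 0, 0.775 and 3.10 CPM in posterior, 0.5, 1.5 and 4.53 CPM in anterior and 0, 0 and 0.0600 CPM in E13.5 libraries. With 186 reads in posterior and 330 in anterior libraries against 1 read at E13.5, its ratio to E13.5 was 196 in the posterior part (95% counting interval 34.7 to 7781) and 333.5 in the anterior part (59.4 to 13210). Slc34a2, the apical sodium and phosphate carrier, had 0, 1.09 and 2.63 CPM in posterior, 9.43, 16 and 36.6 CPM in anterior and 0, 0.0522 and 0.518 CPM in E13.5 libraries. Posterior libraries overlapped with E13.5 and anterior ones lay far above, with a fold change over both parts of 4.87 ± 0.95 (edgeR adjusted p = 1e-04).

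Slc26a6, an apical chloride, bicarbonate and oxalate exchanger, was higher by 1.48 ± 0.49 and Slc9a3, the main sodium and proton exchanger of the adult brush border, by 3.35 ± 1.09, although its highest library held only 1.67 CPM. The Slc9a3 call was lost without posterior Lgr5-negative replicate 1, at 2.70, by DESeq2, at 3.24 (adjusted p = 0.108), and without the posterior libraries highest in erythroid markers, at 2.88. Leaving out that replicate left its group with no read of Slc9a3, and the part of this in the loss was not tested. Slc10a2 was higher by 2.87 ± 1.05 (edgeR adjusted p = 0.031). That call was lost without any of 9 single libraries, 6 of them from E13.5, with values of 2.71 to 2.81 without one of those and of 2.28, 2.39 and 2.29 without anterior labelled replicate 1, Lgr5-negative replicate 2 and Lgr5-positive replicate 3. Without anterior labelled replicate 1, the anterior labelled group held no read of Slc10a2. Slc5a8, a sodium-coupled monocarboxylate carrier, had a fold change of 1.45 that did not pass (edgeR adjusted p = 0.066).

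Both zinc importers separated the stages fully. Slc39a4, the apical importer, had 47.3, 66.4 and 84.8 CPM in posterior, 56.6, 82.8 and 103 CPM in anterior and 13, 15.7 and 18.7 CPM in E13.5 libraries. Its log2 fold change was 2.35 ± 0.32 (edgeR adjusted p = 2.2e-07), with 2.34 to 2.39 in the 3 populations taken singly within the same fit. Slc39a5 had 123, 133 and 149 CPM in posterior, 125, 176 and 218 CPM in anterior and 26.8, 52 and 67.4 CPM in E13.5 libraries, a fold change of 1.8 ± 0.20 (edgeR adjusted p = 3.3e-09). With Slc5a1 and Slc7a9 they made 4 members whose E15.5 libraries all lay above all E13.5 libraries, as did 2.98% of genes tested, and 0 members lay wholly below, as did 3.71%. Against E13.5, 6 members lay wholly above in the posterior part (3.66% of genes tested) and 12 in the anterior part (6.88%), and 0 wholly below in either (4.67% and 7.61%). Slc11a2, the apical importer of ferrous iron, was higher by 0.59 ± 0.20. The iron exporter Slc40a1 went the other way, with 70.6, 168 and 275 CPM in posterior, 168, 319 and 619 CPM in anterior and 217, 496 and 805 CPM in E13.5 libraries. Its log2 fold change was -0.85 ± 0.17 (edgeR adjusted p = 0.00017), and both gut parts overlapped with E13.5. In single populations it was -1.05 in labelled, -1.18 in Lgr5-negative and -0.30 in Lgr5-positive cells, the last with an edgeR adjusted p of 0.632.

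Among vitamin carriers, Slc5a6, the sodium-coupled carrier of biotin and pantothenate, had 15, 17.7 and 25.8 CPM in posterior, 11.8, 23.9 and 27.1 CPM in anterior and 6.94, 15.9 and 20.8 CPM in E13.5 libraries. Its log2 fold change was 0.59 ± 0.21 (edgeR adjusted p = 0.023), and 0.53 with an adjusted p of 0.0615 without E13.5 Lgr5-negative replicate 1. Slc46a1, the proton-coupled folate carrier, had 10.6, 15.6 and 18.5 CPM in posterior, 11.9, 12.8 and 16.1 CPM in anterior and 15.2, 20.5 and 26.5 CPM in E13.5 libraries. It was lower at E15.5 by -0.51 ± 0.17 on the log2 scale (edgeR adjusted p = 0.021), with overlapping stages. This call was lost without E13.5 labelled replicate 3, Lgr5-negative replicate 1 or Lgr5-positive replicate 1 or 3, at -0.47 to -0.43. Slc19a3, a thiamine carrier, had a fold change of 2.47 that did not pass (edgeR adjusted p = 0.083).

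**Figure D2:**
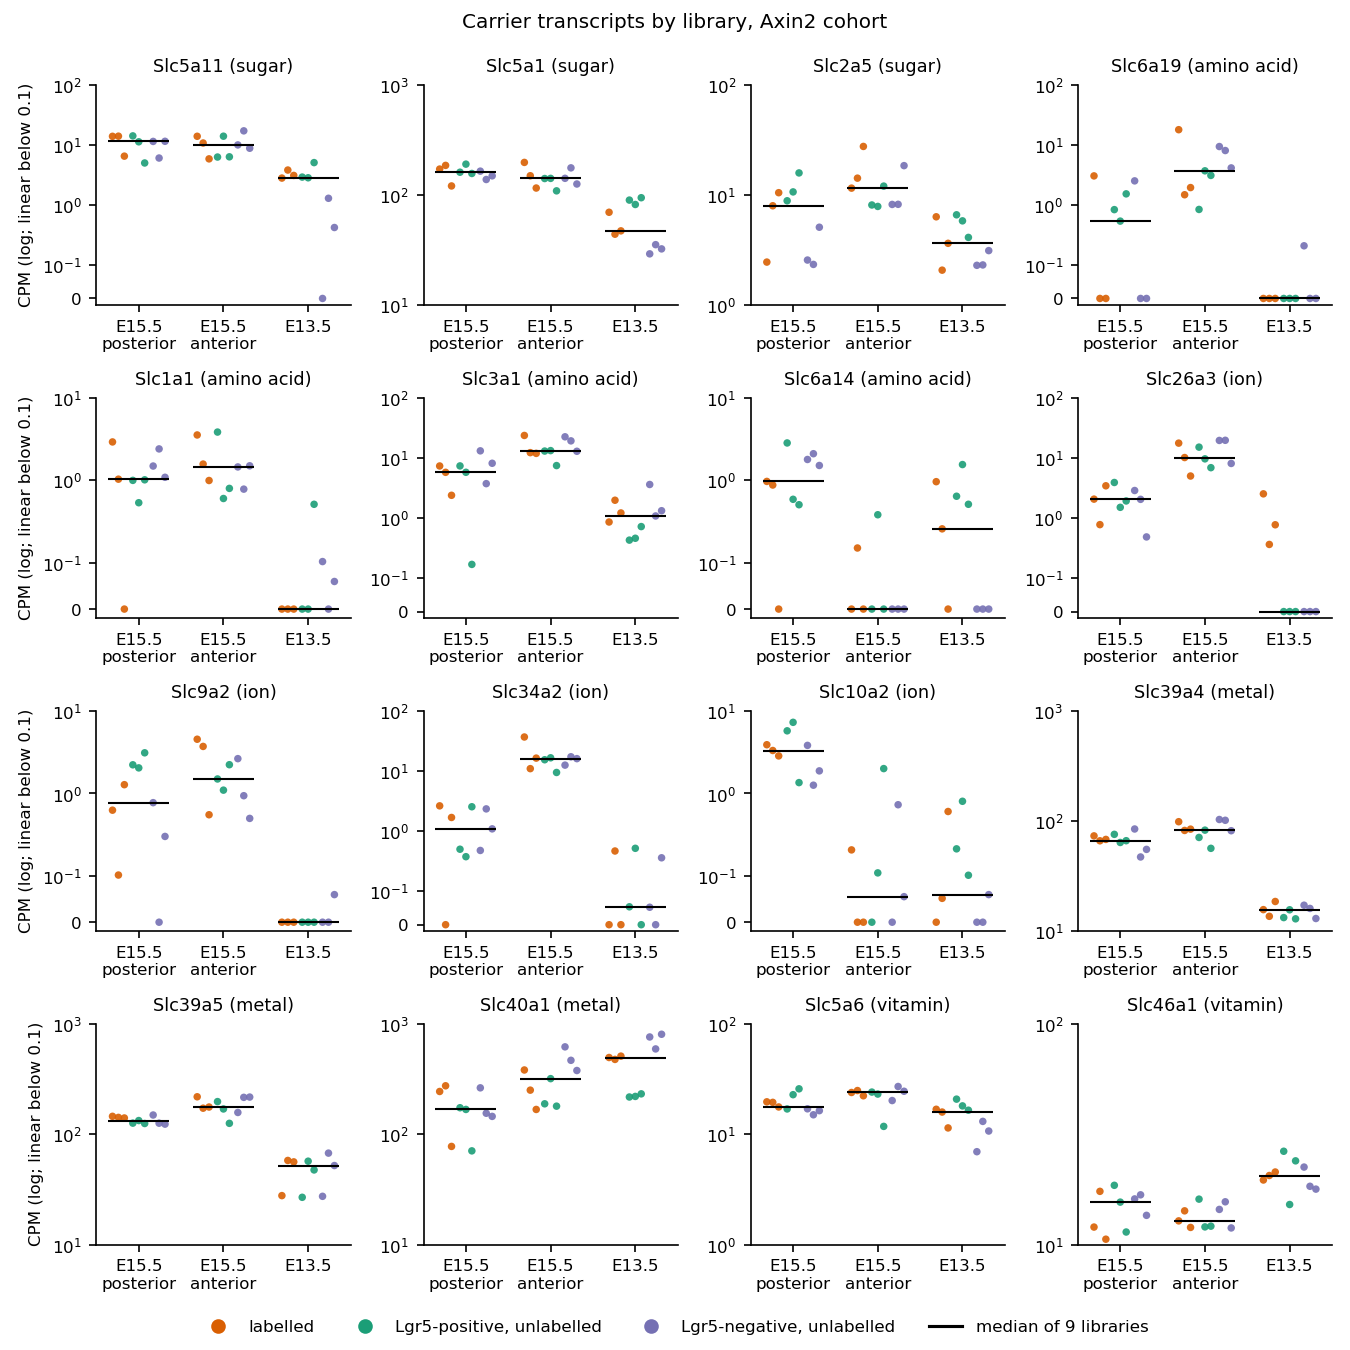
CPM of 16 carriers in each of the 27 Axin2 libraries that enter the stage and gut part comparisons (vertical log axis, linear below 0.1 CPM), by posterior part, anterior part and E13.5. Points are libraries coloured by sorted population and lines are medians of 9 libraries. The E15.5 points of Slc5a1, Slc39a4 and Slc39a5 all lie above those of E13.5, and Slc34a2 and Slc26a3 separate posterior from anterior libraries.

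Lgr5-positive labelled cells, which have no anterior set and were left out of the stage comparison, had other levels of some members at E13.5. Slc5a11 had 10.7, 20.1 and 7.85 CPM in posterior E15.5 libraries of these cells, against 19.3, 5.69 and 15.3 CPM at E13.5. Slc34a2 had 0.762, 0.336 and 5.21 CPM in the posterior part, against 5.47, 0 and 4.18 CPM at E13.5. Both genes overlapped between stages here, and at E13.5 their highest levels lay above those of the other 3 Axin2 populations. Slc5a1 had 145 to 190 CPM in the posterior part, against 90.5 to 156 CPM at E13.5, also with overlap. Slc40a1, at 138, 161 and 76.6 CPM in the posterior part, lay below its 224, 337 and 341 CPM at E13.5. Slc39a4, at 58.2, 56.9 and 67.4 CPM in the posterior part, against 49.8, 23.3 and 31.6 CPM at E13.5, and Slc26a3, at 1.23, 0.504 and 0.401 CPM, against 0, 0.0532 and 0 CPM, did not overlap. Stage was not tested in this population. Its E13.5 libraries had reads for 13109, 13279 and 13339 genes, the fewest of the Axin2 cohort, against 14419 to 15225 in the other Axin2 libraries at E13.5. The part of this in the levels was not tested.

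Of the 23 stage calls, 17 held whichever single library was left out, and 6 were lost without at least 1. Without the anterior library highest in pancreatic markers of each population, 18 of 23 calls were kept, those of Slc10a2 (1.86), Slc11a2 (0.54), Slc26a6 (1.28), Slc46a1 (-0.49) and Slc5a6 (0.58) being lost. Without the posterior libraries highest in erythroid markers 19 were kept, those of Slc11a2 (0.48), Slc26a6 (1.31), Slc2a5 (1.24) and Slc9a3 (2.88) being lost. Both exclusions were chosen after the marker sums had been seen.

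Each gut part was then set against E13.5 with the same 9 E13.5 libraries, so the sets of values share their reference and are given side by side. That reference is the whole gut, so each value holds both stage and gut part, which cannot be told apart here. The limit given for stage, that libraries may share an embryo or pool, holds for these p-values too. In the posterior part, 16 members were higher and 1 lower than at E13.5 (11.9% and 12.4% of genes tested), and in the anterior part 20 were higher and 1 lower (16.1% and 15.9%). Slc6a19 was higher by 6.08 in the posterior and 8.52 in the anterior part on the log2 scale, Slc26a3 by 5.94 and 8.47, Slc34a2 by 3.03 ± 0.94 and 6.70 ± 1.06, and Slc3a1 by 2.38 and 3.74. The sizes for Slc6a19 and Slc26a3 depend on how the fit treats E13.5 groups with no read. Slc5a11 was higher by 2.51 and 2.49, Slc5a1 by 1.62 and 1.47 and Slc39a4 by 2.19 and 2.52, each close between the parts. Slc10a2 was higher in the posterior part by 4.76 ± 1.16 (edgeR adjusted p = 0.0022), and had 0.99 with an adjusted p of 0.55 in the anterior part. Slc5a8 was likewise higher in the posterior part by 2.52 ± 0.69 (edgeR adjusted p = 0.0062) and had 0.37 with an adjusted p of 0.74 in the anterior part. Slc19a3 was higher in the anterior part by 3.98 ± 1.22 (edgeR adjusted p = 0.012). Slc40a1 was lower in the posterior part, at -1.27 ± 0.21 (edgeR adjusted p = 1.2e-05), and had -0.42 ± 0.20 with an adjusted p of 0.12 in the anterior part.

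A few of these calls were lost with single libraries left out or in other runs. In the posterior part, Slc6a14 was lost by DESeq2, at 2.98 (adjusted p = 0.0639), and with any of 14 of the 18 libraries left out, at 2.75 to 3.40, and Slc6a19 without posterior labelled replicate 1 (3.61) or Lgr5-negative replicate 1 (3.68). In either Slc6a19 run, the posterior group concerned was left with no read of that gene. Without the posterior libraries highest in erythroid markers Slc34a2 was lost there at 2.51 (edgeR adjusted p = 0.103) and Slc6a14 at 2.79 (edgeR adjusted p = 0.136). In the anterior part, Slc46a1, the lower member, was lost with any of 11 left out, at -0.55 to -0.49. Also there, Slc1a5 was at 0.34 without E13.5 Lgr5-negative replicate 1 and Slc26a6 at 1.39 without anterior Lgr5-positive replicate 2, and neither passed.

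**Figure D3:**
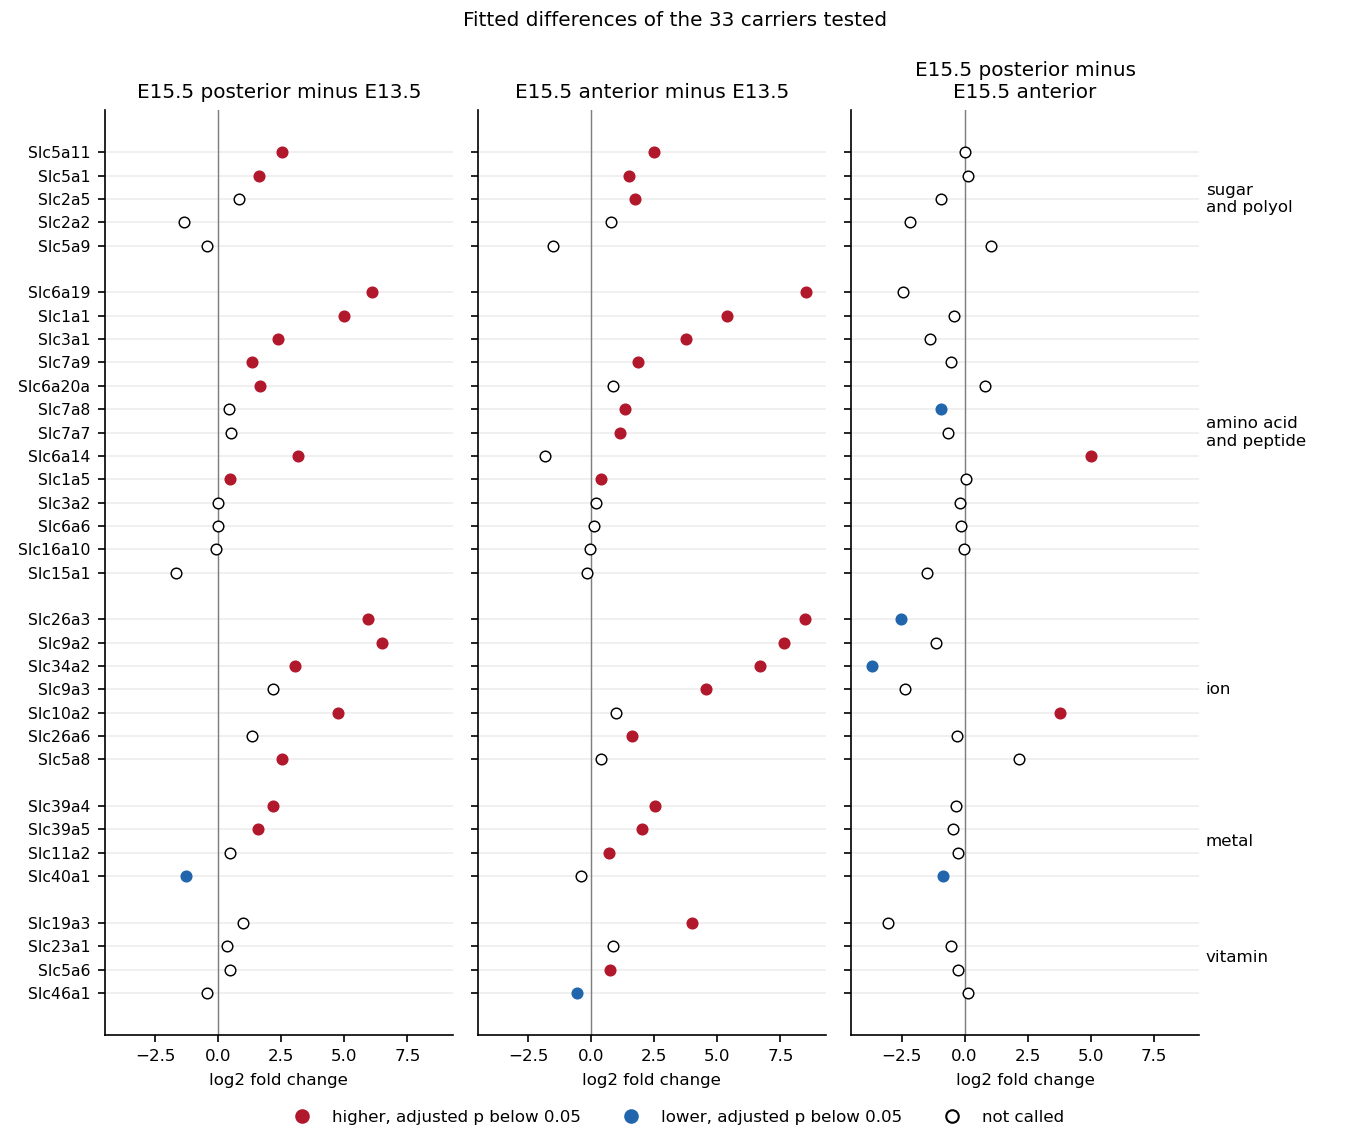
Fitted log2 fold changes of the 33 carriers tested (rows, by substrate class) for E15.5 posterior minus E13.5, E15.5 anterior minus E13.5 and E15.5 posterior minus anterior, where filled points passed an adjusted p of 0.05. Most filled points lie to the right in both comparisons with E13.5, while 6 are filled between the gut parts.

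The gut parts were compared directly over 9 posterior and 9 anterior libraries at E15.5, which the fit took as independent. Where populations of a gut part share an embryo, the standard errors and p-values for gut part may be too small. In the posterior part 2 members were higher and 4 lower than in the anterior part (edgeR's quasi-likelihood test), where 1.86% of genes tested were higher and 1.78% lower. The median log2 fold change was -0.41 over the members tested and -0.02 over all genes tested, and 4 of the 335 other solute carriers were higher and 6 lower. Higher in the posterior part were Slc10a2, the bile acid carrier, and Slc6a14, an apical carrier of neutral and cationic amino acids. Lower were the phosphate carrier Slc34a2, the anion exchanger Slc26a3, the amino acid exchanger Slc7a8 and the iron exporter Slc40a1.

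Slc10a2 had 1.26, 3.31 and 7.25 CPM in posterior libraries, against 0, 0.0556 and 2 CPM in anterior libraries, where 4 were at 0. The sides overlapped only through 1 anterior Lgr5-positive library with 2 CPM. The log2 fold change was 3.77 ± 1.09 (edgeR adjusted p = 0.041), and was 3.57 to 3.87 with adjusted p up to 0.103 when any of 14 of the 18 libraries was left out. The 3 posterior libraries of Lgr5-positive labelled cells, outside this comparison, held 10.4, 6.84 and 4.81 CPM. Slc6a14 had 0, 0.971 and 2.83 CPM in posterior libraries, against 0, 0 and 0.384 CPM in anterior libraries. It had 195 reads over 8 posterior libraries and 10 reads over 2 anterior ones, a fold change of 5.00 ± 1.26 (edgeR adjusted p = 0.018). The anterior Lgr5-negative group held no read of Slc6a14, so this size also depends on the fit. Slc5a8 leaned the same way with 2.15 ± 0.68 and did not pass (edgeR adjusted p = 0.076).

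Slc34a2, at 0 to 2.63 CPM in posterior and 9.43 to 36.6 CPM in anterior libraries, differed by -3.67 ± 0.90 (edgeR adjusted p = 0.011). The values in single populations ran from -3.86 to -3.51. Slc26a3, at 0.484 to 3.89 CPM in posterior and 4.98 to 19.5 CPM in anterior libraries, differed by -2.53 ± 0.74 (edgeR adjusted p = 0.046). These carriers and Slc19a3, at 0 to 0.6 CPM in posterior and 0.660 to 2.32 CPM in anterior libraries, were the 3 members whose posterior libraries all lay below all anterior ones, as did 0.96% of genes tested, and 0 lay wholly above, as did 0.49%. Slc19a3 nonetheless did not pass the test, at -3.02 ± 1.12 (edgeR adjusted p = 0.16). The Slc26a3 call was lost with any 1 of 17 libraries left out, all but anterior labelled replicate 3, at -2.73 to -2.35. Slc7a8 had 52.2, 75.6 and 126 CPM in posterior libraries, against 75.3, 148 and 217 CPM in anterior libraries, with -0.93 ± 0.21 (edgeR adjusted p = 0.0068). Slc40a1 had 70.6, 168 and 275 CPM in posterior libraries, against 168, 319 and 619 CPM in anterior libraries, with -0.85 ± 0.21 (edgeR adjusted p = 0.01), and both genes overlapped between the parts.

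Markers of other cells moved with gut part. All 7 pancreatic markers tested were lower in the posterior part, as were 5 of 8 enterocyte markers, whose sum was 522 to 1049 CPM in posterior and 1069 to 2284 CPM in anterior libraries. Without the 3 anterior libraries highest in pancreatic markers, none of the 4 lower calls passed in edgeR's test, with Slc34a2 at -3.36, Slc26a3 at -2.30, Slc7a8 at -0.75 and Slc40a1 at -0.63 (adjusted p from 0.0857 to 0.223). Without the posterior libraries highest in erythroid markers, neither higher call passed, with Slc6a14 at 4.62 and Slc10a2 at 3.97 (edgeR adjusted p = 0.0789 and 0.082), and of the lower calls Slc34a2 at -4.20, Slc26a3 at -2.76 and Slc40a1 at -0.76 were lost too (edgeR adjusted p from 0.102 to 0.249). These fits have fewer libraries, and the part of the markers in the calls was not tested.

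Genes that work with the carriers were counted by list. Of 8 partners and drivers of transport, 3 were higher and 2 lower at E15.5 than at E13.5, beside 15.6% and 17.9% of all genes tested. Pdzk1, a scaffold of apical carriers, was lower at -1.48 ± 0.22 (edgeR adjusted p = 1.2e-06). Between gut parts only Tmem27 of these 8 passed, known from carrier trafficking in the kidney, lower in the posterior part at -1.41 ± 0.26 (edgeR adjusted p = 0.00045).

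Of 10 brush border hydrolases, many of which free sugars or amino acids that carriers take up, 4 were higher and 0 lower at E15.5. Among the higher ones were Alpi, intestinal alkaline phosphatase, at 3.15 ± 0.49, Ggt1, gamma-glutamyl transferase, at 1.94 ± 0.49 and Anpep, aminopeptidase N, at 1.58 ± 0.17. Alpi was lower in the posterior part at -2.27 ± 0.50 (edgeR adjusted p = 0.0043). Of 15 enterocyte transcription factors, 7 were higher and 2 lower at E15.5, against the same shares of all genes, with Creb3l3 at 4.27 ± 1.03, Cdx1 at 3.41 ± 0.41 and Maf at 2.11 ± 0.36. Between gut parts 3 were lower in the posterior part, Onecut2 at -5.51 ± 0.73, Creb3l3 at -4.20 ± 1.03 and Gata4 at -1.55 ± 0.33, and 0 were higher, where 1.78% of genes tested were lower and 1.86% higher.

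The Lgr5 criterion was compared in unlabelled cells, with 3 Lgr5-positive and 3 Lgr5-negative libraries per setting. In the Axin2 cohort at E13.5, 1 member was higher and 1 lower in Lgr5-positive cells (0.438% and 0.432% of genes tested). Slc5a1 had 89.6, 81.7 and 94.1 CPM in Lgr5-positive libraries, against 29.2, 35.3 and 32.4 CPM in Lgr5-negative libraries, with a log2 fold change of 1.43 ± 0.33 (edgeR adjusted p = 0.017). Slc40a1 had 217, 220 and 232 CPM in Lgr5-positive libraries, against 761, 593 and 805 CPM in Lgr5-negative libraries, with -1.72 ± 0.36 (edgeR adjusted p = 0.0075). Neither gene overlapped between the populations. The Slc5a1 call was lost with any library left out but Lgr5-positive replicate 2, at 1.36 to 1.47, and the Slc40a1 call without Lgr5-positive replicate 1 (adjusted p = 0.0528) or 2 (adjusted p = 0.0505), at -1.72 each in edgeR's test. With replicate number as a block, Slc7a7 also passed, lower at -1.63 (edgeR adjusted p = 0.0286), with 15.8, 16.2 and 17.1 CPM in Lgr5-positive and 52.9, 38.2 and 55.8 CPM in Lgr5-negative libraries. Mesenchymal markers summed to 461 to 563 CPM in Lgr5-positive and 128 to 164 CPM in Lgr5-negative libraries, and their part in these values was not tested.

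At E15.5 no member passed for the Lgr5 criterion in either gut part. Here and below, counts at an unadjusted p, by DESeq2 and by limma come without the share of all genes. They are not read as results about the members. In the posterior part 0 were called (0.329% of genes tested were higher and 0.0645% lower), with 0 higher and 1 lower at an unadjusted p below 0.05, 0 and 1 by DESeq2, and 1 and 2 by limma. In the anterior part 0 were called among genes with 0 calls in all, with 0 higher and 1 lower unadjusted and 0 by DESeq2 and by limma. Slc5a1 there averaged 169 ± 18.3 CPM in Lgr5-positive and 150.1 ± 13.2 CPM in Lgr5-negative posterior cells, and 130.0 ± 18.5 and 147 ± 25.7 CPM in the same order in anterior cells (SD, n = 3 each). Whether the Lgr5 difference itself changed with stage was tested as a difference of differences, in which Slc5a1 had -1.51 ± 0.39 (edgeR adjusted p = 0.116) and Slc40a1 0.88 ± 0.43 (edgeR adjusted p = 1.00). With replicate number as a block, Slc5a1 passed there at -1.51 (edgeR adjusted p = 0.00064), although the numbers paired the Lgr5 populations at E13.5 and not in either part at E15.5. There 0 members passed by edgeR, where 0.0774% of genes tested were higher and 0.0902% lower, 1 higher and 2 lower at an unadjusted p below 0.05, 1 lower by DESeq2, and 1 higher and 6 lower by limma. Whether it changed with gut part gave 0 members by edgeR, unadjusted, by DESeq2 and by limma (0.00645% of genes higher and 0% lower).

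In the Id2 cohort at E13.5, 1 member passed for the Lgr5 criterion, lower in Lgr5-positive cells (0.148% of genes tested were higher and 0.329% lower). Slc7a7 had 4.51, 0.0372 and 4.76 CPM in Lgr5-positive libraries, against 15.7, 31.4 and 43.2 CPM in Lgr5-negative libraries, with no overlap. The log2 fold change was -3.24 ± 0.58 (edgeR adjusted p = 0.0029). With replicate number as a block it was -3.70 and did not pass (edgeR adjusted p = 0.289). Pancreatic markers summed to 2.36, 6.62 and 4.25 CPM in Lgr5-positive libraries, against 377, 2751 and 1242 CPM in Lgr5-negative libraries, and their part in this result was not tested.

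The lineage label was compared among Lgr5-positive cells, labelled against unlabelled, in 3 settings, and 0 members passed by edgeR in any. In the Axin2 cohort at E13.5, 0.0645% of genes were higher and 0.258% lower at edgeR's adjusted threshold. No share is given for an unadjusted p below 0.05, at which 7 members were higher and 3 lower. By DESeq2 or limma 0 passed. There Slc5a11 had 19.3, 5.69 and 15.3 CPM in labelled cells, against 2.89, 2.82 and 5.04 CPM in unlabelled cells, and Slc5a1 had 123, 90.5 and 156 CPM against 89.6, 81.7 and 94.1 CPM. These labelled libraries held 210 to 1571 CPM of mesenchymal markers. They had reads for 13109 to 13339 genes, against 14707 to 15225 in the unlabelled ones. In the posterior part at E15.5 (0% of genes in either direction) 0 members passed unadjusted, by DESeq2 or by limma. In the Id2 cohort (0.0193% of genes in each direction) 2 were higher and 1 lower unadjusted, 1 higher by DESeq2 and 0 by limma. That one was Slc26a3, with 0, 11.6 and 1.71 CPM in labelled and 0.0265, 0 and 0 CPM in unlabelled cells and 8.21 ± 1.79 in edgeR's fit (adjusted p = 0.091). It passed edgeR's threshold without labelled replicate 1 or 3, so that its call turned on single labelled libraries.

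Labelled cells of unstated Lgr5 state were set against Lgr5-negative unlabelled cells in 4 settings. In the Id2 cohort Slc5a11 was the single gene called among all tested (0.00645% lower, 0% higher). It had 0, 0 and 1 reads (0, 0 and 0.0314 CPM) in labelled libraries, against 104, 70 and 73 reads (2.88, 2.59 and 2.35 CPM) in Lgr5-negative libraries. The Lgr5-positive labelled libraries of this cohort, outside this comparison, held 0.110, 2.13 and 2.80 CPM. The ratio of labelled to Lgr5-negative CPM was 0.00387 (95% counting interval 9.7e-05 to 0.0217), with an edgeR adjusted p of 0.0027. With replicate number as a block the fold change was -7.96 and did not pass (edgeR adjusted p = 1.00). In the other settings 0 members passed by edgeR, with 0% of genes called. In the Axin2 cohort at E13.5 4 members were higher and 1 lower unadjusted, 1 higher by DESeq2 and 2 higher and 1 lower by limma. In the posterior and the anterior part at E15.5 1 was lower unadjusted and 0 passed by DESeq2 or limma.

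**Figure D4:**
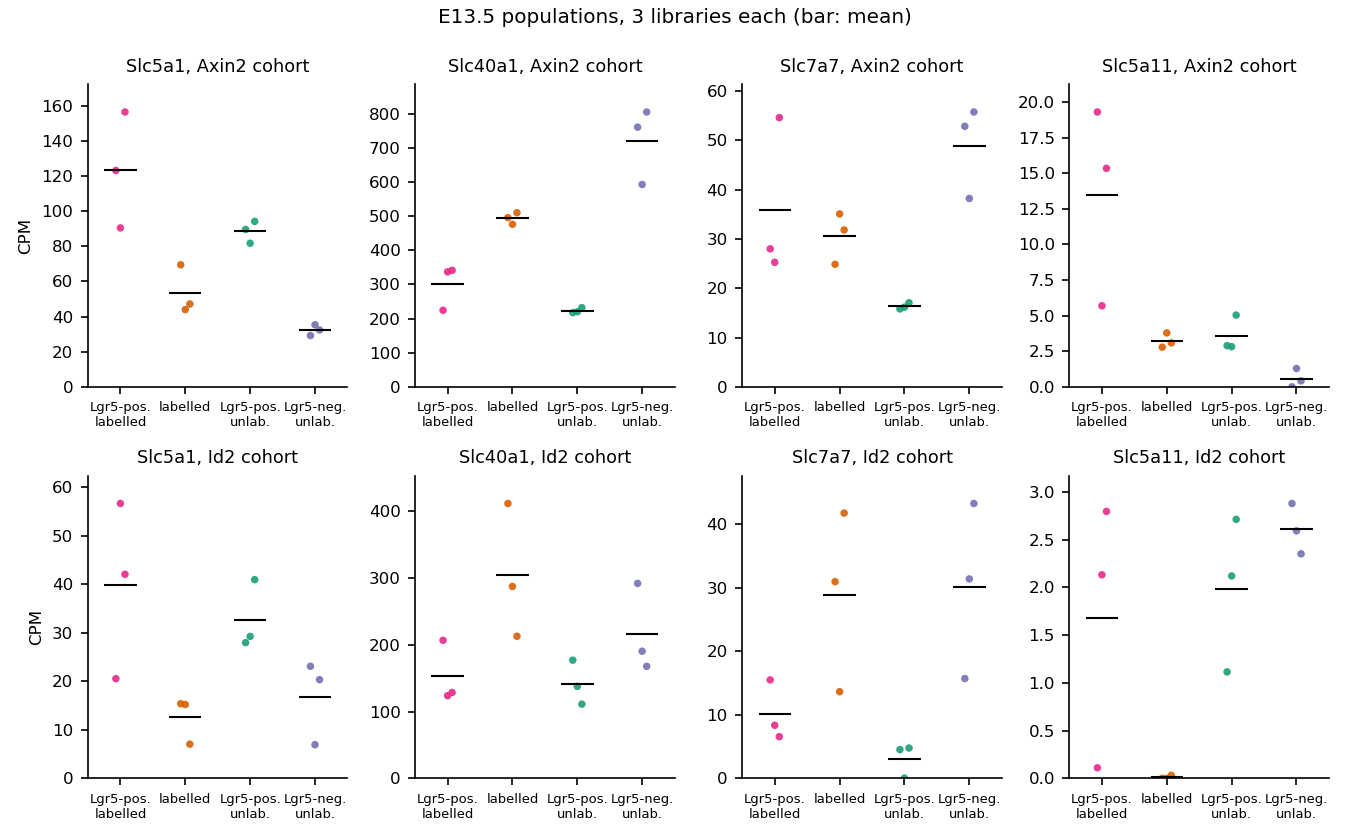
CPM of Slc5a1, Slc40a1, Slc7a7 and Slc5a11 in the 4 sorted populations at E13.5, Axin2 cohort above and Id2 cohort below, where points are libraries and bars are means of 3. Slc5a1 and Slc40a1 separate Lgr5-positive from Lgr5-negative unlabelled cells in the Axin2 cohort. Slc5a11 is at or near 0 in all labelled libraries of unstated Lgr5 state in the Id2 cohort, but not in all Lgr5-positive labelled ones.

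Across the 12 Id2 libraries at E13.5, Slc3a2 had 230 to 310 CPM, Slc40a1 111 to 411 CPM, Slc6a6 64.9 to 127 CPM and Slc1a5 47.7 to 150 CPM. Slc5a1 ran from 6.92 to 56.6 CPM and Slc39a5 from 9.98 to 37.6 CPM. The carriers that were nearly silent at E13.5 in the Axin2 cohort were low here also, Slc9a2 with 13 reads, Slc1a1 with 8, Slc9a3 with 7 and Slc6a19 with 39 over all 12 libraries. Slc34a2 ran from 0 to 6.55 CPM and Slc26a3 from 0 to 11.6 CPM, each with a median under 0.05 CPM.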

How the data were processed

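For every one of 45 libraries the authors deposited a table of gene read counts, all whole numbers. Per the submitters' processing notes the tools included STAR 2.3.1z13, HTSeq 0.6.1p1, SAMtools 1.2, bcl2fastq 1.8.4 and DESeq2 1.14.1, on mouse build mm9. What annotation was used, and whether counting was by strand, is not given in the sources used here. Antisense and overlapping genes may therefore share reads. The 5 closing lines that name no gene held 23.9 to 29.4% of reads in the Axin2 and 33.4 to 49% in the Id2 cohort and were left out of library totals.

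Counts were tested with edgeR 4.0.16 in R 4.3.3 (quasi-likelihood, robust, TMM), with 15 group means and 30 residual degrees of freedom over all 45 libraries. filterByExpr (minimum count 10, minimum total 15) kept 15513 of 23366 genes, and p-values were adjusted by Benjamini-Hochberg over these, with calls at an adjusted p below 0.05. Standard errors are the log2 fold change over the square root of F. Where a group held no read of a gene, the size and standard error of the change depend on how the fit treats that group. P-values measure the spread between these libraries. The method was tested on simulated data. The simulated libraries were independent and had the same dispersion for all genes, so this test does not bear on shared embryos or pools. Members and lists were chosen with earlier results of these data known. Per class, values by library are given for the called members with the largest stage or position changes, up to 4 amino acid carriers and 3 of each other class, and for members called between populations. Slc10a2 was added after its values were seen, and of each list up to 3 called genes with the largest change are named. Not every such gene is reported here.

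Other settings were RLE size factors, limma 3.58.1 with voom and quality weights, DESeq2 1.42.0, no count filter, single populations, the libraries of the setting alone, a replicate block, each library left out and, added after the data had been seen, libraries left out by their pancreatic or erythroid markers. The labels do not say what a replicate number marks. Numbers were taken as pairing libraries where all 3 correlations of same-numbered libraries' deviations (9289 genes with log2 CPM of at least 3, prior count 2) exceeded 0.1. That held for the Lgr5 criterion at E13.5 in the Axin2 (0.236 to 0.727) and Id2 cohorts, the label in posterior and Id2 Lgr5-positive cells, and, between labelled and Lgr5-negative cells, for the anterior part and the Id2 cohort (0.128 to 0.528). The pairing is thus read from the data. Exon lengths came from GENCODE M21 and promoter windows from RefSeq (GRCm38.p6), which differs from the files' build.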

Additional observations from a re-analysis of the deposited data

How the results depend on the processing

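No called member changed direction under any alternative run. Counts of members in these runs are given without the share of all genes called in the same run. They are therefore not read as results about the members. Labelled, Lgr5-positive and Lgr5-negative cells were also contrasted singly within the joint fit. In this order, 8, 5 and 9 members were higher at E15.5 and 1, 0 and 1 lower. For the posterior part against E13.5 these were 5, 4 and 7 higher and 2, 0 and 1 lower, for the anterior part 11, 9 and 10 higher and 0, 0 and 0 lower, and for posterior against anterior 0 in both directions in each population. These contrasts rest on 3 libraries per group and share the spread estimated in the joint fit.

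By limma, 2 members were lower in the posterior and 3 in the anterior part than at E13.5, and 4 were higher and 14 lower in the posterior than in the anterior part. For the Lgr5 criterion limma gave 6 higher and 3 lower in the Axin2 cohort at E13.5, 1 higher and 2 lower in the posterior part, and 0 in the Id2 cohort. For labelled against Lgr5-negative cells it gave 2 higher and 1 lower in the Axin2 cohort at E13.5 and 0 in the Id2 cohort. For the change of the Lgr5 difference with stage it gave 1 higher and 6 lower. DESeq2 gave 2 higher for the Lgr5 criterion in the Axin2 cohort at E13.5, 1 lower in the posterior part and 2 lower in the Id2 cohort, 1 higher for the label among Id2 Lgr5-positive cells, 1 higher for labelled against Lgr5-negative Axin2 cells at E13.5 and 1 lower for the change with stage. With no count filter, 0 members were lower in the anterior part than at E13.5.

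With replicate number as a block, 3 members were lower in the posterior part than at E13.5, and 4 were higher and 11 lower in the posterior than in the anterior part. The block gave 2 lower for the Lgr5 criterion in the Axin2 cohort at E13.5, 1 higher and 3 lower in the posterior part, 0 lower in the Id2 cohort, 0 for labelled against Lgr5-negative Id2 cells and 1 lower for the change with stage. It moved no other count by over 1.5 times. The libraries of each setting fitted alone gave 10 lower in the posterior than in the anterior part. For the Lgr5 criterion they gave 2 lower in the Axin2 cohort at E13.5, 2 lower in the posterior part and 0 in the Id2 cohort, and for labelled against Lgr5-negative Id2 cells 0. For the change with stage they gave 1 lower. The cause of these differences was not tested. Between stages the numbers did not pair the libraries (correlations of -0.304 to 0.4625). Between gut parts they met the mark in labelled cells (0.335 to 0.408) but not in Lgr5-positive (-0.249 to 0.205) or Lgr5-negative cells (-0.0508 to 0.469), so the comparison was not taken as paired. With the block, Slc5a8 at 2.22 and Slc19a3 at -3.04 were among the genes that passed between gut parts, and Slc34a2 at 2.98 did not pass in the posterior part against E13.5 (edgeR adjusted p = 0.0614).

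With 1 library left out, 19 to 21 members were higher and 1 to 2 lower at E15.5, 14 to 16 higher and 1 lower in the posterior part than at E13.5, 19 to 20 higher and 0 to 1 lower in the anterior part than at E13.5, and 1 to 2 higher and 3 to 4 lower in the posterior than in the anterior part. For the Lgr5 criterion in the Axin2 cohort at E13.5 it was 0 to 1 in each direction, and for the label among Id2 Lgr5-positive cells 0 to 1 higher. Without the anterior libraries highest in pancreatic markers, 1 member was lower at E15.5 and 0 were lower in the posterior than in the anterior part. Without the posterior libraries highest in erythroid markers, 0 were higher and 1 lower in the posterior than in the anterior part.

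Of the carriers near 1 CPM, Slc6a19 had a stage change of 6.07, not called, without posterior labelled replicate 1, against 7.30 with all libraries, while Slc9a2 and Slc1a1 kept their stage calls without any 1 library. Leaving that replicate out left its group with no read of Slc6a19.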
